A study of Mus musculus with 24 samples.

Results

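The response of wild-type macrophages to medium from apoptotic hepatocytes was read from 8 of the 24 libraries of the series, the 4 labelled WTACM and the 4 labelled WTNC in the deposited table. The cells were primary macrophages of C57BL/6 mice, grown from bone marrow for 7 days with L929-conditioned medium, a source of macrophage colony-stimulating factor. Both groups carry the wild-type genotype (WT) and no transgene or deletion. The WT ACM group was kept for 24 h in ACM: AML12 cells, a mouse hepatocyte line, were driven into apoptosis by 800 µM palmitate for 24 h, then moved to new serum-free medium, which was collected after another 24 h. The WT untreated group is labelled as the untreated control, and the labels do not say which medium it was kept in. The other groups of the study are WT cells given sphingosine-1-phosphate (S1P, a lipid signal) at 500 nM for 24 h, and Trem2(-/-) knockout (KO) cells under the same 3 conditions. Trem2 is a lipid-sensing receptor of macrophages. Each group has 4 libraries. The 10665 genes with 1 FPKM or more (fragments per kilobase of exon and per 1000000 mapped fragments) in at least 4 of the 8 libraries were tested. The difference between ACM and untreated cells includes any effect of serum-free medium, of palmitate carried over and of healthy AML12 products, since no group received these alone.

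Macrophages that meet dying cells read them through several sensing systems. Nucleic acids and interferons act through STAT2 and IRF factors on interferon-stimulated genes. Sterols and unsaturated fatty acids hold back SREBP, the transcription factor that drives their own synthesis, whereas fatty acids are stored in droplets coated by perilipins or are burnt in mitochondria. Oxidants and electrophiles release NRF2 from KEAP1 to induce antioxidant enzymes, and a load of unfolded protein or a lack of amino acids engages ATF4, CHOP and the chaperones of the endoplasmic reticulum (ER). The results below follow these systems and then the proteins by which macrophages take up, present and dissolve material.

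The libraries of the comparison held 17.7 to 20.2 M recovered reads (M, 1000000) and 10579 to 10734 genes at 1 FPKM or more. The labels name no animal, culture or batch, and the p-values therefore reflect the spread among these 8 libraries alone, which could be technical. Each group has its own run of library numbers, so treatment cannot be told apart from any difference in preparation. In a principal component analysis of all 24 libraries the 4 WT untreated and 4 WT ACM libraries formed separate tight groups, at -8.3 to -7.1 and 7.4 to 8.1 on the first component (47.8% of the variance). One KO library stood apart from its label: the library labelled KO untreated 81 lay at 0.65 on that component, while the other 11 KO libraries lay between -11.3 and -10.4. Its Trem2 level was 79.6 FPKM, against 35.7 to 40.2 in the 3 other KO untreated libraries, so comparisons with KO untreated cells are given with and without it. Trem2 transcripts of the other KO libraries were below the WT levels but not at 0, between 35.7 and 40.7 FPKM, and the labels do not say which part of it was deleted. Macrophage markers were present in both WT groups. Of 19 tested core macrophage markers 6 rose and 8 fell (4 and 11 with TPM scaling), and the 20 listed summed to 11886 to 12309 FPKM untreated and 10100.0 to 10861 with ACM. Most of the fall in this sum was that of lysozyme (Lyz2), from 5792 to 4496 FPKM on average. Adgre1, which encodes the F4/80 antigen, was at 194 to 202 FPKM in untreated and 192 to 201 in ACM cells, and Csf1r, the receptor of the growth factor, at 304 to 315 and 329 to 341. Hepatocyte transcripts were close to 0: albumin (Alb) was at 0 in all 4 ACM libraries, and the 31 of 32 listed hepatocyte markers found in the table summed to 2.24 to 3.59 FPKM untreated and 2.04 to 2.27 with ACM.

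ACM changed many genes by small amounts. Limma called 2965 genes, 27.8% of those tested, with 1595 higher (15.0%) and 1370 lower (12.8%) at a Benjamini-Hochberg adjusted p below 0.05. Counts of list members below are to be read beside these shares, and a list near them did no more than all genes. The median change of the called genes was 0.22 log2 units for those that rose and -0.22 for those that fell, on the log2(FPKM + 1) scale used throughout, which understates the change of low genes. Only 30 rose and 12 fell by 1 unit or more, and 2 rose by 2 units or more. Groups did not overlap for 1691 higher (15.9% of genes tested) and 1522 lower genes (14.3%), and 115 called risers and 97 called fallers had groups that did overlap. Which direction held more genes depended on the scaling: with values rescaled to a common sum (TPM) the calls were 701 higher and 3551 lower, where the median change over all tested genes was -0.10 under it and -0.002 on the FPKM values. With TPM scaling that leaves out Gm23935 and CT010467.1, the pair of short non-coding genes with the largest gain (a setting chosen after seeing the data), 1223 were higher and 1885 lower. In these bulk libraries fewer cells of a type and less RNA per cell cannot be told apart, for any gene or list below. Of the genes tested, 36 passed the filter through 1 group only, and 18 of these were among the risers and 13 among the fallers. The plot of change against level shows every gene tested.

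**Figure D1:**
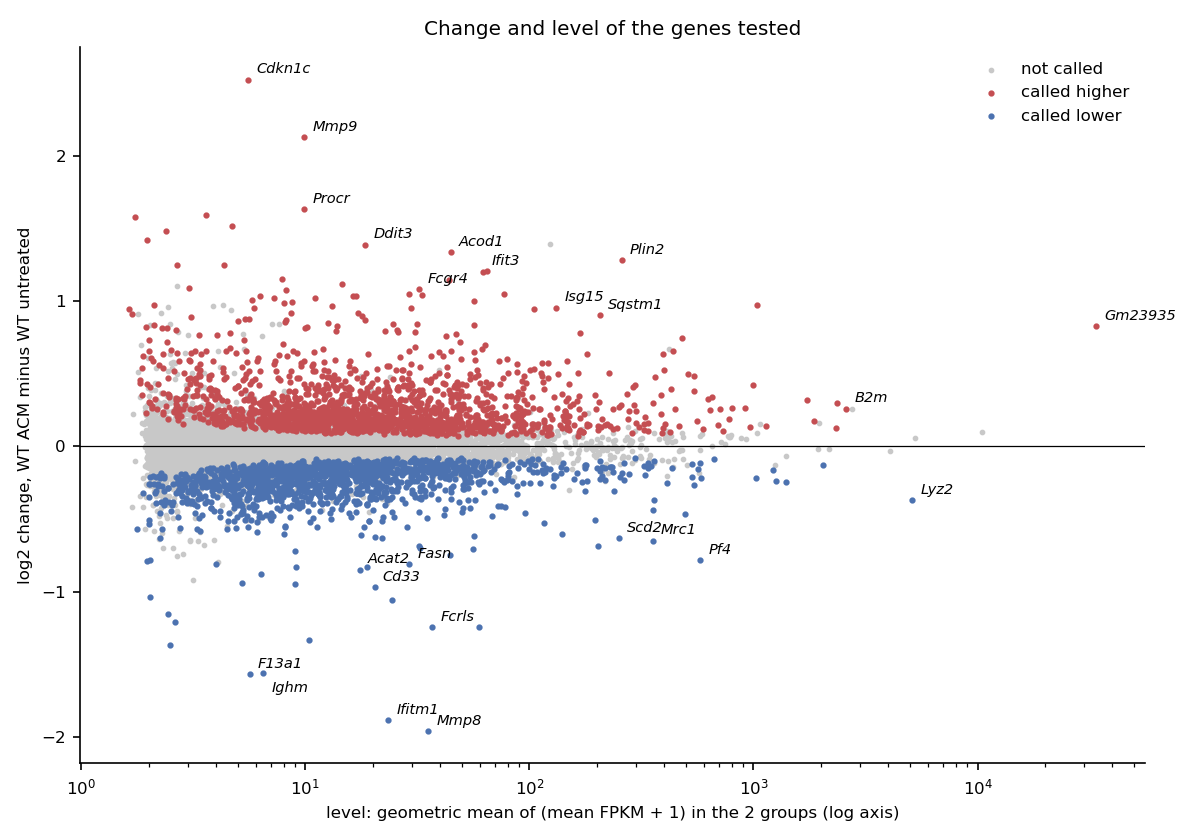
Change in log2(FPKM + 1) from WT untreated to WT ACM (vertical axis) against the level (horizontal log axis, geometric mean of the mean FPKM + 1 in both groups) for the 10665 genes tested, red for called higher, blue for called lower and grey for not called. Most called genes lie within 0.5 log2 units of 0, and Cdkn1c (2.52) and Mmp8 (-1.96) mark the ends.

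The genes with the largest rise came from different systems. Cdkn1c (ENSMUSG00000037664, GRCm38 chr7:143458339-143461050, - strand), an inhibitor of cyclin-dependent kinases that holds cells out of the cycle, was at 0.999, 1.61, 1.31 and 1.34 FPKM in the 4 untreated libraries and at 12.2, 13.1, 11.6 and 12.2 with ACM. The groups lay far apart, 9.32 times higher on average, a change of 2.52 ± 0.08 (SE; limma adjusted p = 8.31e-08). Mmp9 (ENSMUSG00000017737, GRCm38 chr2:164940780-164955850, + strand), the gelatinase that cuts collagen fragments and basement membrane, was at 3.42, 3.94, 3.54 and 3.96 FPKM untreated and 21.4, 19.8, 19.7 and 17.5 with ACM. It thus rose 5.28 times, by 2.13 ± 0.06 (SE; limma adjusted p = 7.79e-08). Procr, the endothelial protein C receptor, went from 4.61 to 16.3 FPKM on average (1.63 ± 0.10), and Serpinb9b, an inhibitor of serine proteases, from 1.79 to 6.94 (1.51 ± 0.07). Cox6a2, the muscle form of a cytochrome oxidase subunit, went from 1.07 to 5.25 (1.59 ± 0.13), while the 44 listed nuclear respiratory chain genes gave 2 higher and 1 lower (0 and 20 with TPM scaling). All 4 ACM libraries exceeded all 4 untreated libraries for each of these genes.

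The genes with the largest fall included secreted and surface proteins of myeloid cells. Mmp8 (ENSMUSG00000005800, GRCm38 chr9:7558456-7568485, + strand), a collagenase made mostly by neutrophils, was at 67.8, 65.6, 72.9 and 68.7 FPKM untreated and at 15.8, 17.4, 16.6 and 18.2 with ACM, 4.05 times lower (-1.96 ± 0.05 SE; limma adjusted p = 2.19e-08). Ifitm1 (ENSMUSG00000025491, GRCm38 chr7:140967221-140969825, + strand), an interferon-induced membrane protein that restricts virus entry, was at 43.9, 45.1, 45.5 and 40.6 FPKM untreated and 10.99, 9.5, 11.8 and 12.5 with ACM (-1.88 ± 0.07 SE; limma adjusted p = 2.37e-07). Ifitm1 fell while most interferon-induced genes described below rose. F13a1, the transglutaminase subunit of coagulation factor XIII, fell from 8.69 to 2.29 FPKM (-1.57 ± 0.08), and Ighm, the heavy chain of immunoglobulin M, from 10.1 to 2.77 (-1.56 ± 0.06). Cbr2, a carbonyl reductase, fell from 90.5 to 37.7 (-1.24 ± 0.04), Id1, an inhibitor of helix-loop-helix factors, from 6.19 to 2.77 (-0.94 ± 0.11), and P2ry13, an ADP receptor, from 7.58 to 3.7 (-0.88 ± 0.10). Nxpe5 fell from 11.5 to 5.48 FPKM (-0.95 ± 0.04).

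**Figure D2:**
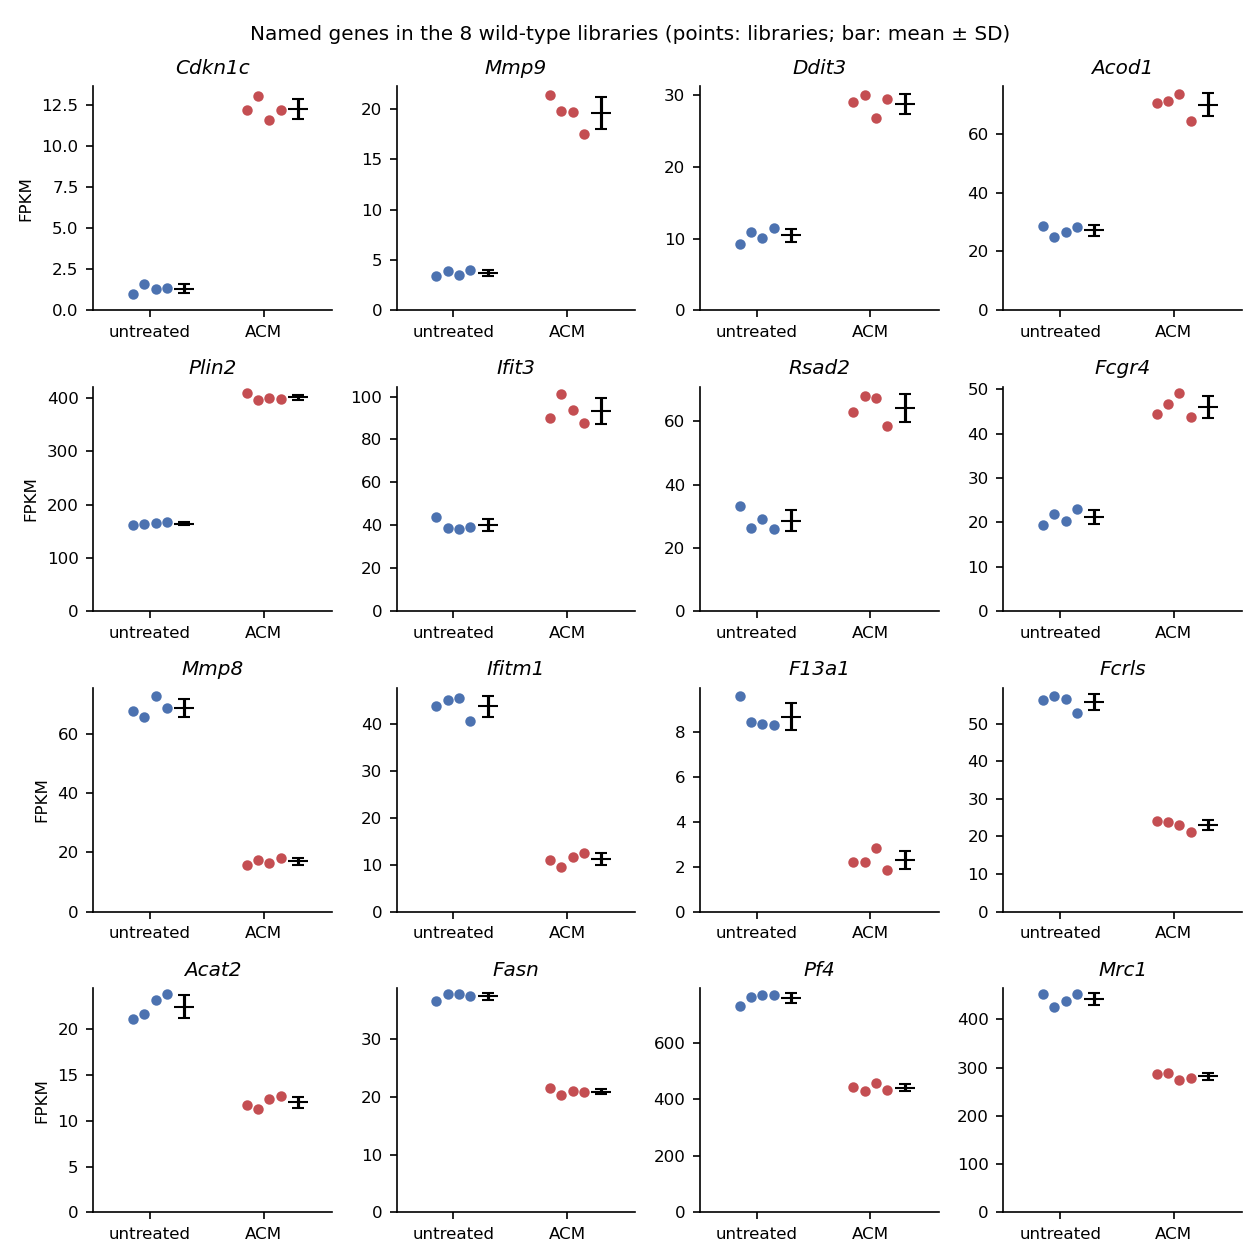
FPKM of 16 genes in each of the 4 WT untreated (blue) and 4 WT ACM libraries (red), with the mean and SD as a black bar beside the points and every vertical axis starting at 0. The 2 groups do not overlap for any of these genes, from Cdkn1c with 0.999 to 1.61 against 11.6 to 13.1 FPKM to Mrc1 with 427 to 453 against 274 to 290.

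Nearly all genes of the type I interferon list rose. Ifitm1, the interferon-induced gene that fell as given above, is not on this list. Of 39 genes of the type I interferon response, all tested, 37 rose and 0 fell, with a median change of 0.50, where 15.0% of all genes tested rose and the median over all of them was -0.002. Their summed level went from 2586 ± 128 to 3546 ± 70.3 FPKM (SD, n = 4 each). With TPM scaling 35 rose and 0 fell. Many of these genes carry an interferon-stimulated response element, a site bound by STAT2 with IRF9, close to their start. Stretches of such promoters, from RefSeq on GRCm38.p6, are shown because these genes rose together. They read 5′ to 3′ along each gene's own strand, and capitals mark the letters GAAANNGAAA in Isg15 and Irgm1 and, read on the opposite strand, their reverse complement in the others.
Ifit3: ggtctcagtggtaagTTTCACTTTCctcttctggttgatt
Isg15: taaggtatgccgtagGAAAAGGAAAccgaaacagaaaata
Stat2: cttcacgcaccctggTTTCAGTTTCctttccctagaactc
Irgm1: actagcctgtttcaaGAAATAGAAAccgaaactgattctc
Gbp2: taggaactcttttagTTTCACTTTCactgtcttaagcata
They lie at chr19:34583358-34583397, + strand, chr4:156200872-156200911, - strand, chr10:128270261-128270300, + strand, chr11:48871426-48871465, - strand and chr3:142620589-142620628, + strand. In windows of 300 bases, 250 before to 50 after a start, on both strands, the letters were found in 1131 of 32851 promoters in the table (3.4%). They were in 18 of 36 promoters of the 29 type I response genes that matched the table, and in 8 of 10 promoters of the interferon-induced GTPases. Among promoters of all called genes the share was 6.8% for risers and 2.6% for fallers. A match describes the letters only, and binding was not measured.

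Some regulators of the interferon response rose as well. Irf7 (ENSMUSG00000025498, GRCm38 chr7:141262706-141266481, - strand), the factor that amplifies type I interferon, was at 51.4, 52.8, 55.1 and 51.96 FPKM untreated and 112, 108, 111 and 108 with ACM (1.05 ± 0.03 SE; limma adjusted p = 5.13e-08). Its libraries within each group differed by less than 5 FPKM, and the groups did not overlap. Stat2 went from 45.2 to 62.6 FPKM (0.46 ± 0.03), while Irf9, its partner, at 17.8 to 19.3, did not pass (limma adjusted p = 0.0571). Usp18, which switches off interferon receptor signalling, rose from 28.3 to 44.1 (0.62 ± 0.04). Of the 21 tested receptors and sensors 9 rose and 1 fell, with a median of 0.11 (6 and 3 with TPM scaling). Irf5, a factor downstream of Toll-like receptors, rose from 48.8 to 68.9 FPKM (0.49 ± 0.03), Ikbke, a kinase that activates IRF3 and IRF7, from 19.1 to 25.7 (0.41 ± 0.04), and Tlr3, a sensor of double-stranded RNA, from 7.04 to 9.14 (0.34 ± 0.04). Ifngr1, a chain of the interferon gamma receptor, fell from 43.8 to 38.9 (-0.17 ± 0.03). Transcripts of the ligands were hardly present at 24 h: interferon beta (Ifnb1) was at 0 to 0.0675 FPKM untreated and 0 to 0.135 with ACM, and Ifna4 was at 0 in all 8 libraries.

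Among the antiviral effectors Ifit2 and Ifit3, of a family that binds foreign RNA, moved most. Ifit3 was at 44.02, 38.5, 38.3 and 38.97 FPKM untreated and at 89.9, 101, 93.8 and 87.8 with ACM (1.20 ± 0.06 SE; limma adjusted p = 5.58e-07). Ifit2 was at 45.9, 38.4, 41.8 and 40.7 and 99.8, 98.4, 101 and 89.99 (1.20 ± 0.05 SE; limma adjusted p = 5.5e-07). Rsad2, viperin, which makes an antiviral nucleotide, went from 28.6 to 64.3 FPKM (1.15 ± 0.08), its neighbour Cmpk2 from 22.1 to 46.6 (1.04 ± 0.06), Isg15, a ubiquitin-like modifier, from 93.5 to 182 (0.95 ± 0.05), and Isg20, an exonuclease, from 4.28 to 10.8 (1.15 ± 0.06). Members with smaller changes included the kinase Eif2ak2 (0.16) and the RNA sensors Ddx58 (0.35) and Ifih1 (0.40). Ifit3 and Ifit3b, and the Oas1 genes, are near-identical copies whose reads can be split between them, so their single values are uncertain.

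The GTPases that attack vacuoles of intracellular microbes rose too, 14 of 15 tested, with a median of 0.46 and 0 lower. Irgm1 was at 24.2, 22.9, 23.3 and 23.5 FPKM untreated and 31.7, 35.3, 32.7 and 31.5 with ACM (0.47 ± 0.04 SE; limma adjusted p = 2.25e-05). Tgtp2 had the largest change, from 8.36 to 15.9 FPKM (0.85 ± 0.06), and Gbp2 went from 12.7 to 18.9 (0.54 ± 0.05). Of the p200 proteins, DNA-binding sensors, 6 of 7 rose, with Ifi204 from 47.7 to 76.5 FPKM (0.67 ± 0.05) and Ifi211 from 31.6 to 54.1 (0.76 ± 0.08). Aim2, the p200 member that starts an inflammasome, was the exception at 15.6 to 14.8, which did not pass; with TPM scaling it was called lower.

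Genes of class I antigen presentation rose. Of 23 tested genes of MHC class I and peptide loading 22 rose and 0 fell (19 and 0 with TPM scaling), with a median of 0.38 and a summed level of 5208 ± 81.5 to 6512 ± 119 FPKM (SD, n = 4 each). H2-D1, a classical class I heavy chain, was at 876, 895, 832 and 820.5 FPKM untreated and 1145, 1118, 1182 and 1144 with ACM (0.42 ± 0.03 SE; limma adjusted p = 2.19e-05). Other steps of the pathway rose too: the peptide transporter Tap1 went from 32.2 to 42.3 FPKM (0.38 ± 0.04), tapasin (Tapbp) from 113 to 159 (0.50 ± 0.03), the immunoproteasome subunit Psmb8 from 55.98 to 67.1 (0.26 ± 0.03) and the class I activator Nlrc5 from 10.9 to 15.5 (0.47 ± 0.03). H2-T23, a non-classical class I gene, went from 98.2 to 147 (0.57 ± 0.03). Of 12 class II and costimulation genes 4 rose and 0 fell (2 and 4 with TPM scaling), and the risers were the protease Ctss (-0.04 with quantile normalization) and the costimulatory genes Cd86 (not called with TPM scaling), Cd40 and Cd274. The class II chains H2-Aa (6.38 to 5.91 FPKM), H2-Ab1 (10.5 to 10.4) and the invariant chain Cd74 (55.2 to 51.4) did not pass. Cd274, which encodes the inhibitory ligand PD-L1, rose from 8.5 to 14.1 (0.67 ± 0.05).

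Genes fell along nearly the whole course of cholesterol synthesis. Of 25 tested genes of cholesterol synthesis and uptake 23 fell and 0 rose, where 12.8% of all genes tested fell, and the median was -0.38. Their summed level dropped from 495 ± 9.1 to 378 ± 3.1 FPKM (SD, n = 4 each), and 24 fell with TPM scaling. Acat2 (ENSMUSG00000023832, GRCm38 chr17:12942890-12960747, - strand), which joins the first acetyl units, was at 21.1, 21.7, 23.2 and 23.8 FPKM untreated and 11.7, 11.3, 12.4 and 12.7 with ACM (-0.85 ± 0.05 SE; limma adjusted p = 1.94e-06). Reads of Acat2 can be split with its near-identical neighbour Acat3. In the mevalonate arm Hmgcs1 went from 22.1 to 15.1 FPKM (-0.52 ± 0.05) and Idi1, which isomerises the isoprene unit, from 10.5 to 5.98 (-0.72 ± 0.05). After squalene, Lss, which closes the sterol rings, went from 7.69 to 5.49 (-0.42 ± 0.04) and Cyp51 from 25.3 to 17.4 (-0.52 ± 0.05). Small falls were those of the regulator Srebf2 (-0.13) and the sterol sensor Insig1 (-0.20).

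The promoter of Hmgcs1 is shown because it holds, within the 300 bases searched, both a sterol regulatory element, the site of SREBP (letters TCACNCCAC), and a CCAAT box, the site of NF-Y, a factor known to act beside SREBP. Capitals mark the motif, on the opposite strand for the CCAAT box (ATTGG), and a further CCAAT stretch comes from Idi1.
Hmgcs1 sterol element: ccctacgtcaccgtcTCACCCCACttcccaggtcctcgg
Hmgcs1 CCAAT box: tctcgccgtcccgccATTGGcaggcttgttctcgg
Idi1 CCAAT box: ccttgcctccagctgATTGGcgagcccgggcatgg
They lie at chr13:119690199-119690237, + strand, chr13:119690160-119690194, + strand and chr13:8885546-8885580, + strand. The sterol letters were in 1 of 22 promoters of the cholesterol list against 1.2% of all promoters. CCAAT was in 16 of 22, against 37.4% of all promoters and 46.4% of the promoters of genes called lower.

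Fatty acid synthesis fell with sterol synthesis, 14 lower and 1 higher of 21 tested (median -0.24). Fasn (ENSMUSG00000025153, GRCm38 chr11:120805846-120824547, - strand), the fatty acid synthase, was at 36.7, 37.9, 37.8 and 37.5 FPKM untreated and 21.6, 20.3, 21.1 and 20.8 with ACM (-0.81 ± 0.03 SE; limma adjusted p = 1.35e-07). Scd2, a desaturase that makes monounsaturated fatty acids, was at 307, 309.7, 311 and 314 and 205, 206, 198 and 190.4 (-0.63 ± 0.03 SE; limma adjusted p = 5.58e-07), and Scd1 went from 56.5 to 33.3 (-0.75 ± 0.03). Acaca, the carboxylase that commits carbon to the pathway, went from 5.75 to 4.57 (-0.28 ± 0.04), and the regulator Srebf1 from 33.3 to 28.1 (-0.24 ± 0.03). The 1 riser was Acsl1, which activates fatty acids (0.15 ± 0.04), and with TPM scaling 17 fell and 0 rose.

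Some genes of fatty acid storage, uptake and mitochondrial import rose, while their lists moved in both directions. Of 17 tested genes of lipid droplet coats and lipolysis 6 rose and 2 fell (4 and 3 with TPM scaling). Plin2 (ENSMUSG00000028494, GRCm38 chr4:86648386-86670060, - strand), the coat protein of lipid droplets, was at 161, 164, 166 and 167 FPKM untreated and 409, 398, 401 and 399 with ACM, 2.44 times higher (1.28 ± 0.02 SE; limma adjusted p = 2.46e-09). Its 4 libraries in each group agreed within 12 FPKM. Hilpda, an inhibitor of droplet lipolysis, rose from 12.05 to 23.5 FPKM (0.90 ± 0.10), the fatty acid transporter Cd36 from 306 to 426 (0.48 ± 0.03), lipoprotein lipase (Lpl) from 250.1 to 332 (0.41 ± 0.02) and the lysosomal acid lipase Lipa from 315 to 490.5 (0.64 ± 0.02). Cpt1a, which carries fatty acids into mitochondria, rose from 23.4 to 38.1 FPKM (0.68 ± 0.04), Slc25a20, the carnitine shuttle, from 6.01 to 10.1 (0.66 ± 0.05) and Acot2, a mitochondrial thioesterase, from 3.13 to 5.87 (0.73 ± 0.07). The enzymes of beta oxidation as a whole did not follow: of the 24 oxidation and PPAR genes 7 were called higher and 3 lower, with a median of -0.01, and with TPM scaling 5 and 11. The fatty acid binding proteins Fabp4 (3.57 to 2.59 FPKM, -0.35) and Fabp5 (96.3 to 79.5, -0.27) fell.

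Genes listed as targets of LXR, the nuclear receptor of oxysterols, or for cholesterol efflux split. Of 19 tested 4 rose and 7 fell (2 and 9 with TPM scaling). The cholesterol exporters Abca1, from 27.5 to 22 FPKM (-0.31 ± 0.04), and Abcg1, from 61.9 to 45.9 (-0.43 ± 0.03), fell, as did Mylip, a ubiquitin ligase (-0.34), and Arl4c (-0.56). Lpl and Smpdl3a (0.30), also on this list, rose. The phospholipid transfer protein Pltp rose slightly (0.11).

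Antioxidant genes under NRF2 rose, 24 of 33 tested and 0 lower, with a median of 0.32 (18 higher and 1 lower with TPM scaling). Srxn1, sulfiredoxin, which repairs overoxidised peroxiredoxins, was at 36.4, 39.8, 40.6 and 39.1 FPKM untreated and 76.9, 77.5, 81.2 and 79.3 with ACM (1.00 ± 0.04 SE; limma adjusted p = 1.82e-07). Prdx1, an abundant peroxiredoxin, was at 372, 363, 377 and 376 and 611, 629, 635 and 615 (0.74 ± 0.02 SE; limma adjusted p = 1.35e-07). In the glutathione arm Gclm, the modifier subunit of the first enzyme of glutathione synthesis, went from 11.96 to 18.4 FPKM (0.59 ± 0.03). Glutathione reductase (Gsr) went from 20.4 to 31.8 (0.62 ± 0.04) and Gpx1 from 457 to 639.5 (0.48 ± 0.05). Slc7a11, the cystine importer that feeds this arm, was at 0.206, 0.204, 0.273 and 0.219 FPKM untreated and 1.28, 1.3, 1.32 and 1.32 with ACM; counted among the 24, it passed the filter on low values only through the ACM group, where it had to differ, and its test is not given. Txnrd1, thioredoxin reductase, went from 39.1 to 52.2 (0.41 ± 0.03), Nqo1, a quinone reductase, from 5.05 to 10.1 (0.87 ± 0.09), catalase (Cat) from 92.7 to 139 (0.58 ± 0.03), and heme oxygenase (Hmox1) from 229 to 275 (0.27 ± 0.03). Sqstm1, which encodes the autophagy receptor p62 and is an NRF2 target, was at 145, 152, 153 and 148 and 271, 274, 289.6 and 288 (0.90 ± 0.03 SE; limma adjusted p = 1.35e-07).

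Stretches of the Gclm, Txnrd1 and Prdx1 promoters are shown with the antioxidant response element in capitals (letters TGACNNNGC, here on the opposite strand), for genes of the group that rose and hold a match.
Gclm: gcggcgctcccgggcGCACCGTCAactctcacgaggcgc
Txnrd1: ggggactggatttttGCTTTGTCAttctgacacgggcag
Prdx1: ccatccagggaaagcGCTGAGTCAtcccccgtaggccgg
They lie at chr3:122245408-122245446, + strand, chr10:82859099-82859137, + strand and chr4:116685451-116685489, + strand. The letters were in 9 of 37 promoters of NRF2 targets, against 12.4% of all promoters and 13.9% of the promoters of all called risers. The enzymes that supply NADPH were not uniform: of 16 tested 3 rose, namely Taldo1 (0.29), Pgd (0.27) and G6pdx (0.13), and 5 fell, among them Idh1 (-0.25) and Idh2 (-0.19), and with TPM scaling 2 rose and 8 fell. Of 22 heme and iron genes 7 rose and 6 fell (7 and 8 with TPM scaling). Slc11a1, the phagosomal metal transporter, rose from 34.6 to 55 FPKM (0.66 ± 0.03), the iron exporter Slc40a1 from 19.2 to 24.2 (0.32 ± 0.03), while the hemoglobin scavenger receptor Cd163 fell from 3.78 to 2.96 (-0.27 ± 0.04).

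Several stress genes of the eIF2 alpha pathway, the integrated stress response, rose, while Atf4 (109.6 to 112 FPKM) did not pass. Ddit3 (ENSMUSG00000025408, GRCm38 chr10:127290774-127296288, + strand), which encodes CHOP, was at 9.23, 10.9, 10.1 and 11.4 FPKM untreated and 29.1, 29.97, 26.8 and 29.5 with ACM (1.39 ± 0.06 SE; limma adjusted p = 4.5e-07). Trib3, a pseudokinase induced by CHOP, was at 8.94, 9.1, 9.01 and 8.6 and 20.9, 19.5, 22.8 and 19.1 (1.12 ± 0.05 SE; limma adjusted p = 5.58e-07). Ppp1r15a, GADD34, which reverses the phosphorylation, went from 4.66 to 10.9 FPKM (1.08 ± 0.06), and Atf3 from 71.3 to 106 (0.57 ± 0.02). Of 21 factors and targets tested 9 rose and 0 fell (8 and 3 with TPM scaling). Of 15 genes of serine, one-carbon and asparagine synthesis, enzymes under ATF4, 8 fell and 1 rose (12 and 0 with TPM scaling), with Psat1 from 28.5 to 20.1 FPKM (-0.49 ± 0.04), Phgdh from 35.8 to 30.7 (-0.21 ± 0.04) and Asns from 36.4 to 32.1 (-0.18 ± 0.04). Of 22 cytosolic tRNA synthetases 2 rose and 3 fell (1 and 11 with TPM scaling). These shares, 9.09% and 13.6%, were close to or below the 15.0% and 12.8% of all genes tested. The larger change was that of Wars, which interferon also induces, from 24.4 to 33.4 (0.44 ± 0.03).

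The promoters of Atf3 and Slc7a11 are shown with the C/EBP-ATF response element, the composite site of ATF4 (letters TGATGNAA in Slc7a11 and their reverse complement in Atf3, in capitals), as genes of the lists described that hold a match.
Atf3: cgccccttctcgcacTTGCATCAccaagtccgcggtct
Slc7a11: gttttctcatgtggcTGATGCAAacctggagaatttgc
They lie at chr1:191183421-191183458, - strand and chr3:50443657-50443694, - strand. The letters were in 4 of 25 promoters of the stress factors and 4 of 20 of the amino acid transporters, the list that gave Slc7a11. They were in 4.0% of all promoters and 2.3% of those of tested genes. Among promoters of called genes the share was 2.8% for risers and 2.8% for fallers.

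Chaperones of the ER rose as a group, 22 of 26 tested with 0 lower (15 and 0 with TPM scaling; median 0.28). Hspa5, which encodes BiP, the main ER chaperone, was at 335, 311, 344 and 337 FPKM untreated and 474, 479, 477 and 480.4 with ACM (0.53 ± 0.03 SE; limma adjusted p = 3.56e-06). Hyou1 went from 32.2 to 50.02 FPKM (0.62 ± 0.03), the co-chaperone Dnajb9 from 14.7 to 21.3 (0.51 ± 0.03), calreticulin (Calr), also a class I loading factor, from 476 to 618 (0.38 ± 0.04), and the sensor Ern1, IRE1, from 9.57 to 12.6 (0.37 ± 0.04). Cytosolic heat shock proteins moved less, 7 higher and 1 lower of 23 (3 and 8 with TPM scaling), with Hspa1b from 3.58 to 5.48 FPKM (0.50 ± 0.10).

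**Figure D3:**
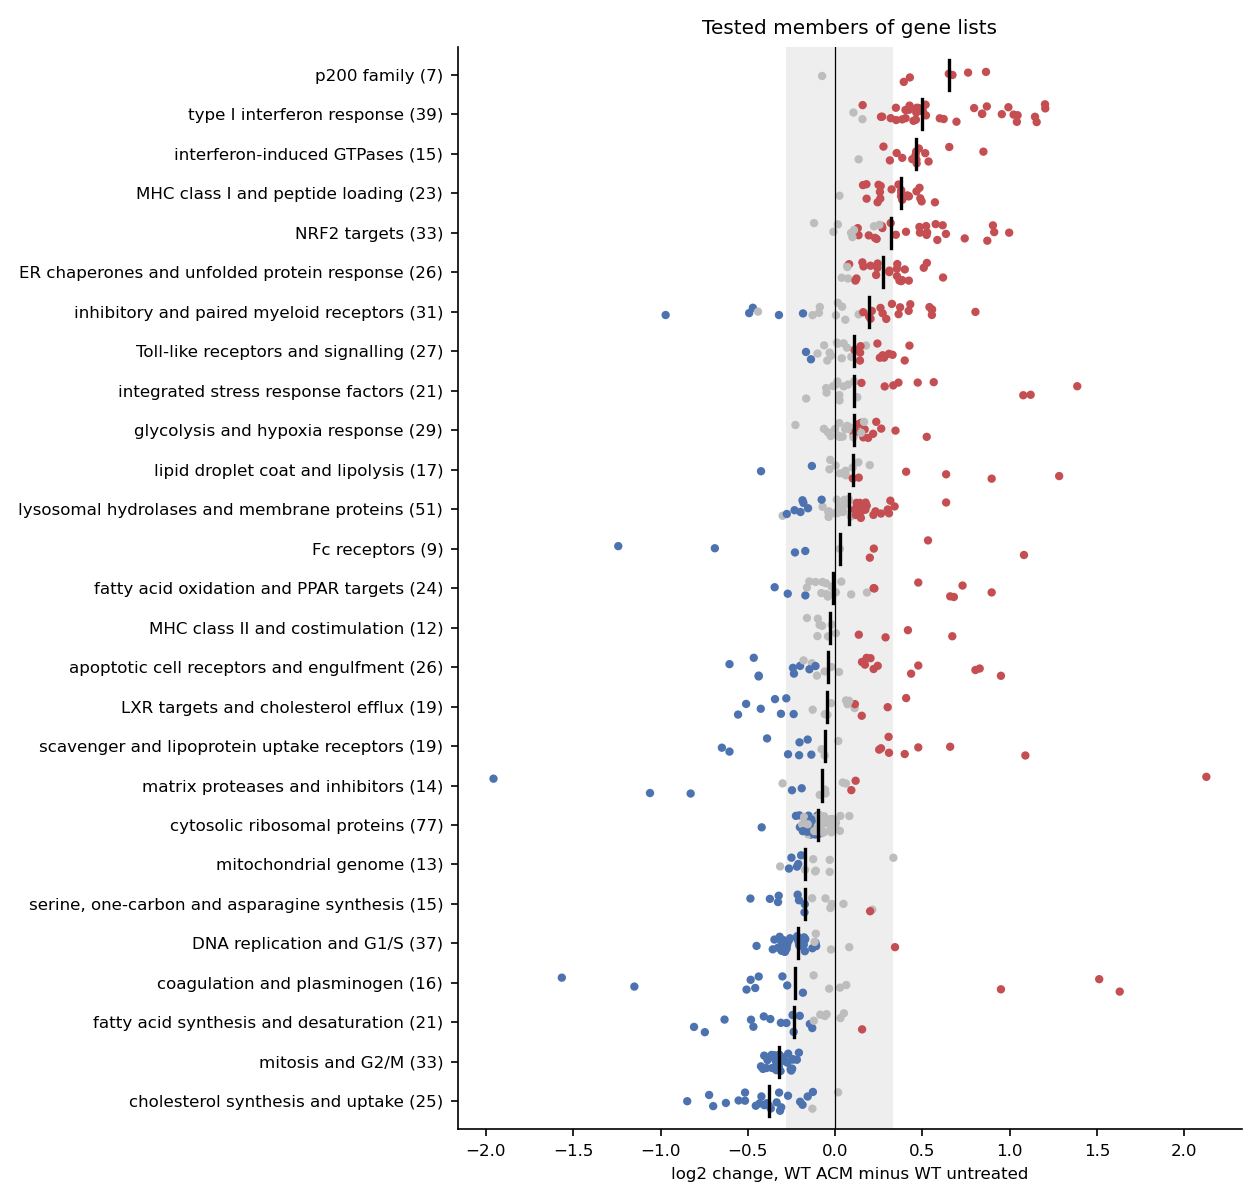
Change from WT untreated to WT ACM (log2 of FPKM + 1) of each tested member of 27 gene lists, with the number tested in brackets; red points were called higher, blue lower and grey not called, black bars are medians, and the grey band spans the 5th to 95th percentile of all 10665 genes (-0.28 to 0.32). The interferon, class I, NRF2 and ER chaperone lists lie to the right, and the cholesterol, mitosis and fatty acid synthesis lists to the left.

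Most of the proliferation genes fell. All 33 tested genes of mitosis and G2/M were lower, with a median of -0.32, a range of -0.42 to -0.21 and a summed level that went from 854 ± 18.3 to 672 ± 11.9 FPKM (SD, n = 4 each). All 33 also fell with TPM, median and quantile scaling. Nusap1, a spindle protein, was at 19.9, 21.1, 20 and 21.4 FPKM untreated and 15.2, 15.6, 14.6 and 15.7 with ACM (-0.41 ± 0.04 SE; limma adjusted p = 3.3e-05). Mki67, the proliferation antigen Ki-67, went from 82.9 to 61.9 (-0.41 ± 0.05), cyclin B2 (Ccnb2) from 57.4 to 42.4 (-0.42 ± 0.04) and topoisomerase 2 alpha (Top2a) from 64.3 to 49.5 (-0.37 ± 0.04). Of 37 genes of DNA replication and G1/S 32 fell and 1 rose (median -0.22). Rrm2, a subunit of ribonucleotide reductase, was at 56.99, 55.2, 57.9 and 60.1 FPKM untreated and 43.2, 41.7, 39.5 and 42.97 with ACM (-0.45 ± 0.04 SE; limma adjusted p = 1.95e-05). The riser was cyclin D2 (Ccnd2), from 12.1 to 15.6 (0.34 ± 0.04).

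Stretches of 4 promoters are shown for the sites known at cell cycle genes. Capitals mark a CCAAT box, the site of NF-Y, in Ccnb2 and Kif11, read on the opposite strand in Kif11, and an E2F site, the letters TTTCNCGC, in Uhrf1 and its reverse complement in Mcm6.
Ccnb2: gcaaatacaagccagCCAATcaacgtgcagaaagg
Kif11: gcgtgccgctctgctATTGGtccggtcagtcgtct
Mcm6: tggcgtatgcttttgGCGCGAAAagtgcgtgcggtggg
Uhrf1: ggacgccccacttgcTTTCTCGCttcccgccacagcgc
They lie at chr9:70421622-70421656, - strand, chr19:37376322-37376356, + strand, chr1:128359789-128359826, - strand and chr17:56303266-56303303, + strand. CCAAT was in 22 of 28 promoters of mitosis genes, against 37.4% of all promoters. The E2F letters were in 10 of 36 promoters of replication genes, against 2.1% of all promoters, 3.9% of those of tested genes and 7.1% of those of called fallers.

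Other cell cycle inhibitors were not uniform. Of 20 CDK inhibitors and p53 targets 6 rose and 5 fell (6 and 11 with TPM scaling). Cdkn2c, p18, fell from 36.4 to 29.4 FPKM (-0.30 ± 0.04), and Cdkn2a from 4.35 to 2.89 (-0.46 ± 0.09). The stress genes Gadd45a, from 2.98 to 6.29 (0.87 ± 0.09), and Gadd45g, from 7.9 to 12.1 (0.57 ± 0.08), rose, as did Mdm2, from 30.8 to 38.4 (0.31 ± 0.02).

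Housekeeping groups had small median changes, from -0.17 to 0.11, but several held more calls than all genes tested (15.0% higher, 12.8% lower). Lower were 32.5% of ribosomal protein genes and 38.5% of mitochondrial transcripts. Higher were 41.4% of glycolysis and 47.1% of lysosomal genes. Of 77 cytosolic ribosomal protein genes 25 fell and 0 rose, with a median of -0.10 (57 fell with TPM scaling). Of the 13 mitochondrial genome transcripts 5 fell, with mt-Cytb from 1108 to 952 FPKM (-0.22 ± 0.04). Of 32 proteasome subunits 5 rose (15.6%, near the share of all genes) and 0 fell, but with TPM scaling 0 rose and 5 fell. Of the 29 tested genes of glycolysis and the hypoxia response 12 were called higher and 0 lower, which became 4 and 5 with TPM scaling; Vegfa, the angiogenic factor, from 21.8 to 31.9 FPKM (0.52 ± 0.03), and hexokinase 3 (Hk3), from 146 to 186 (0.35 ± 0.03), were the larger changes. Of 51 lysosomal genes 24 rose and 7 fell, and with TPM scaling 7 rose and 14 fell, so their direction as a group depended on the scaling. Psap, which encodes the saposins, was at 2125, 2078, 2230.1 and 2059.5 FPKM untreated and 2602, 2564, 2633 and 2664 with ACM (0.30 ± 0.03 SE; limma adjusted p = 0.000145), whereas cathepsin L (Ctsl) fell from 234 to 199 (-0.23 ± 0.03). The 18 proton pump subunits gave 6 higher and 0 lower (2 and 3 with TPM scaling), with Tcirg1 from 146 to 181 (0.31 ± 0.03).

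Matrix proteases moved in opposite directions. Beside the rise of Mmp9 and the fall of Mmp8, Mmp13, a collagenase, was at 34.8, 32.2, 36.2 and 33.8 FPKM untreated and 15.05, 14.2, 17.3 and 17.2 with ACM (-1.06 ± 0.06 SE; limma adjusted p = 3.08e-06). Mmp27 went from 11.1 to 5.81 FPKM (-0.83 ± 0.04). Mmp12, the macrophage elastase, did not pass at 236 to 222. The inhibitor Timp2 fell from 82.9 to 69.7 (-0.25 ± 0.02). Of the 14 proteases and inhibitors tested 3 rose and 5 fell (1 and 9 with TPM scaling).

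Of 16 genes listed for coagulation and plasminogen, among them serpins and transglutaminases, 9 were called lower and 3 higher (10 and 3 with TPM scaling). The fallers besides F13a1 included urokinase (Plau), at 234, 226, 236 and 232 FPKM untreated and 163, 162, 164 and 162 with ACM (-0.51 ± 0.02 SE; limma adjusted p = 4.37e-07). Its receptor Plaur went from 49.3 to 40.5 (-0.27 ± 0.04), and factors F7 and F10 from 6.61 to 4.45 and 2.79 to 1.74. Of the 9, the urokinase inhibitor Serpinb2 (2.63 to 0.642) passed the filter only through the untreated group, where it had to differ. The risers on this list were Procr, the serpin Serpinb9b and the transglutaminase Tgm2, from 20.3 to 40.1 (0.95 ± 0.05). Among 18 growth factors and ligands of repair 4 rose and 6 fell (4 and 9 with TPM scaling). Thbs1, which activates latent TGF beta, rose from 9.38 to 17.5 (0.83 ± 0.04) and Igf1 from 43.01 to 52.7 (0.29 ± 0.03), while Tgfbi, a TGF beta-induced matrix protein, fell from 70.6 to 43.01 (-0.70 ± 0.04).

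Fc receptors moved in both directions. The activating receptors Fcgr4, at 19.5, 21.97, 20.4 and 23.05 FPKM untreated and 44.4, 46.7, 49.1 and 43.7 with ACM (1.08 ± 0.06 SE; limma adjusted p = 1.06e-06), and Fcgr1, from 86.1 to 125 (0.53 ± 0.03), rose. The inhibitory receptor Fcgr2b was at 39.4, 39.3, 39.2 and 40.9 and 23.4, 24.1, 24.5 and 25.02 (-0.69 ± 0.03 SE; limma adjusted p = 3.52e-07), and Fcrls, a scavenger-like relative, was at 56.3, 57.3, 56.6 and 52.8 and 24.1, 23.7, 23 and 21.3 (-1.24 ± 0.04 SE; limma adjusted p = 1.35e-07). Fcgr3, an activating receptor, also fell, from 284 to 242 (-0.23 ± 0.04). Of the 9 Fc receptor genes tested 4 rose and 4 fell (2 and 4 with TPM scaling). The shared signalling chain Fcer1g did not pass at 710.4 to 724.

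Receptors for lipoproteins, glycans and dead cells moved in both directions. Of 19 scavenger receptors 8 rose and 8 fell (8 and 11 with TPM scaling), and of 26 genes for binding and engulfing apoptotic cells 11 rose and 9 fell (5 and 13 with TPM scaling). The mannose receptor Mrc1 was at 453, 427, 439 and 453 FPKM untreated and 286, 290.0, 274 and 278 with ACM (-0.65 ± 0.03 SE; limma adjusted p = 5.58e-07). Stab1, which binds phosphatidylserine, went from 172 to 113 (-0.61 ± 0.02), and the complement bridge C1qa from 579 to 419 (-0.47 ± 0.06). The bridging ligands of the TAM receptors fell, Gas6 from 413 to 304 (-0.44 ± 0.03) and Pros1 from 8.01 to 5.65 (-0.44 ± 0.05), while the TAM receptor Axl rose from 16.1 to 22.2 (0.44 ± 0.04). Cd300a, an inhibitory receptor for phosphatidylserine, rose from 18.5 to 32.98 (0.80 ± 0.04), Marco, a scavenger receptor, from 1.08 to 3.4 (1.09 ± 0.10), and Cd5l, an apoptosis inhibitor of macrophages, from 22.1 to 35.5 (0.66 ± 0.04). Complement C3 was at 19.01, 18.4, 19.4 and 19.6 FPKM untreated and 39.98, 39.9, 43.6 and 38.9 with ACM (1.05 ± 0.04 SE; limma adjusted p = 1.82e-07), in contrast to C1qa and C1qb.

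Trem2 itself, the receptor deleted in the other arm of the study, was at 74.5, 82.7, 75.3 and 78.6 FPKM untreated and 88.4, 87.4, 93.4 and 91.1 with ACM. The groups did not overlap, and the change was 0.21 ± 0.04 (SE; limma adjusted p = 0.00243); in 1 fit of all 24 libraries it was not called (limma adjusted p = 0.315). Of 24 markers of lipid-associated macrophages, the Trem2-linked state of fatty tissue, 11 rose and 4 fell (6 and 8 with TPM scaling), with Gpnmb, a lysosomal glycoprotein, from 1088 to 1197 (0.14 ± 0.03) and the fatty acid binding genes given above among the fallers. Of 31 tested inhibitory and paired receptors 17 rose and 5 fell (14 and 9 with TPM scaling). Cd33, an inhibitory siglec, was at 27.3, 27.4, 26.9 and 28.5 FPKM untreated and 13.1, 13.3, 14.2 and 13.7 with ACM (-0.97 ± 0.03 SE; limma adjusted p = 1.35e-07). Treml2 rose from 11.9 to 17.97 (0.55 ± 0.03) and Slamf7 from 18.1 to 27.1 (0.56 ± 0.04), while Trem1 fell from 11.9 to 8.15 (-0.49 ± 0.06).

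Inflammatory mediators changed selectively. The interferon-linked chemokines Ccl5, at 4.42, 4.43, 5.55 and 4.34 FPKM untreated and 11.1, 11.3, 9.17 and 9.51 with ACM (0.99 ± 0.08 SE; limma adjusted p = 2.63e-05), and Cxcl10, at 9.44, 8.16, 8.32 and 7.78 and 17.3, 18.9, 18.3 and 15.1 (0.96 ± 0.07 SE; limma adjusted p = 1.29e-05), rose. The abundant monocyte chemokines did not pass: Ccl2 was at 1004 to 1068 FPKM on average, Ccl3 at 242 to 239.6 and Ccl4 at 220.4 to 228. Pf4, platelet factor 4, which macrophages also make, was at 732, 762, 769 and 769 FPKM untreated and 443, 429, 458 and 432 with ACM (-0.78 ± 0.03 SE; limma adjusted p = 2.37e-07). Tnf fell slightly, from 41.1 to 36.04 (-0.19 ± 0.03), and of 28 cytokine and NF-kB feedback genes 11 rose and 4 fell (6 and 4 with TPM scaling). Of 27 genes of Toll-like receptor signalling 12 rose and 2 fell (6 and 5 with TPM scaling), and of 20 inflammasome genes 8 rose and 2 fell (2 and 5 with TPM scaling). Ninj1, which ruptures the membrane of dying cells, rose from 119.7 to 180.1 FPKM (0.58 ± 0.04). Csf1, the macrophage growth factor, rose from 9.35 to 16.97 (0.80 ± 0.04).

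Enzymes of immunometabolism rose in part. Acod1 (ENSMUSG00000022126, GRCm38 chr14:103046977-103056573, + strand), which makes itaconate from the citric acid cycle, was at 28.7, 24.8, 26.7 and 28.2 FPKM untreated and 70.5, 71.1, 73.6 and 64.4 with ACM, 2.58 times higher (1.33 ± 0.05 SE; limma adjusted p = 2.58e-07). Arginase 1 (Arg1) rose from 1.56 to 3.37 (0.77 ± 0.16), argininosuccinate synthase (Ass1) from 18.4 to 27.6 (0.55 ± 0.07), and ornithine decarboxylase (Odc1) from 34.5 to 46.9 (0.43 ± 0.03). Of 9 tested genes of this group 6 rose and 0 fell (4 and 2 with TPM scaling). Of 12 genes of alternative activation 5 rose and 1, Mrc1, fell (3 and 5 with TPM scaling). Eicosanoid genes gave 5 higher and 5 lower of 17: 5-lipoxygenase (Alox5; not called in the fit of all 24 libraries) fell from 14.3 to 10.3 (-0.43 ± 0.05), the leukotriene receptor Ltb4r1 from 4.28 to 2 (-0.81 ± 0.11), and cyclooxygenase 1 (Ptgs1) rose from 12.6 to 16.8 (0.40 ± 0.04). Of 24 sphingolipid genes 8 rose and 2 fell (3 and 10 with TPM scaling): the receptor S1pr2 rose from 11.9 to 14.8 (0.30 ± 0.03) and the kinase Sphk2 from 17.6 to 21.1 (0.25 ± 0.04), while the synthase Ugcg fell from 10.3 to 9.04 (-0.17 ± 0.05).

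Markers of other cells moved with the groups in a few cases. Of 18 granulocyte markers 5 were tested and 1, Mmp8, was called. The list summed to 80.3 to 89.2 FPKM untreated and 29.5 to 34.4 with ACM, a fall that was almost all that of Mmp8. Ly6g was at most 0.299 FPKM in any of the 8 libraries. Of 15 monocyte markers 7 were tested, with 3 higher and 3 lower (1 and 3 with TPM scaling) and sums of 128 to 135 FPKM untreated and 127 to 137 with ACM. The only tested gene of the 19 lymphoid, mast and erythroid markers was Ighm, and their sum was 10.2 to 11.7 FPKM untreated and 3.46 to 4.14 with ACM, with Cd3e at 0 throughout. The fall in this sum was that of Ighm. The 15 dendritic cell markers summed to 439 to 469.6 and 599 to 659 FPKM, and of the 5 tested the interferon-induced Bst2 rose, from 427 to 604 (0.50 ± 0.04), and Cd83 fell, from 6.26 to 4.66 (-0.36 ± 0.08). The gain in this sum was that of Bst2. Of 12 osteoclast markers 8 were tested, with 3 higher and 0 lower (3 and 2 with TPM scaling) and a median of 0.05. The 12 summed to 44.6 to 46.9 and 61.2 to 64.7 FPKM. Mmp9 and Acp5 (0.852 to 1.87) were among the risers, and Acp5 averaged under 1 FPKM in untreated cells. Most of the gain in this sum was that of Mmp9. The part of other cells in the changes of Mmp8, Ighm and F13a1 was not tested.

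By amount of transcript the picture differed from that by fold. The largest gain was in Gm23935, a 57-base gene annotated as a miRNA, at 26455, 30668, 17067 and 27934 FPKM untreated and 33992, 48420.0, 53322 and 43593 with ACM (0.83 ± 0.19 SE; limma adjusted p = 0.00996), followed by CT010467.1, annotated as rRNA, whose groups overlapped (745 to 1448 FPKM on average; 0.97 ± 0.23 SE; limma adjusted p = 0.0112). Both varied widely within a group, Gm23935 was not called in the fit of all 24 libraries, with quantile normalization or with no filter, and neither is messenger RNA. How these transcripts bear on the other genes was tested only through the TPM scaling given above. The largest gains of messenger RNA were those of Psap, B2m, from 2364 to 2829 FPKM (0.26 ± 0.03; -0.01 with quantile normalization, and not called with no filter), cathepsin D (Ctsd), from 1556 to 1936 (0.32 ± 0.04; not called with quantile normalization), and H2-D1. The largest loss was that of lysozyme (Lyz2), at 5819.8, 5697, 5917 and 5733 FPKM untreated and 4516, 4754, 4657 and 4055 with ACM (-0.37 ± 0.05 SE; limma adjusted p = 0.000537; not called with no filter), followed by Pf4 and Ccl6, from 1511 to 1277 (-0.24 ± 0.03). Only 1 gene went from under 0.1 FPKM in all 4 untreated libraries to 1 or more in all 4 ACM libraries: the small nucleolar RNA Snord87, at 0 in every untreated library and at 2.84, 1.75, 2.3 and 1.3 with ACM. Snord87 passed the filter only through the ACM group, where it had to differ. Such values of a small RNA in oligo(dT) libraries can rest on few reads, which was not examined.

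ACM was next set against S1P within WT cells, which asks what separates the medium from a single lipid signal. Limma called 4166 genes different (39.1% of those tested), 2359 higher (22.1%) and 1807 lower (16.9%) with ACM, which became 1635 and 2640 with TPM scaling and 2053 and 2234 with TPM scaling without Gm23935 and CT010467.1. Of the 15 genes with the largest rise under ACM, 6 were higher with ACM than with S1P, 8 were lower and 1, Acod1, did not pass. The 6 were Mmp9, Fcgr4 and the interferon genes Ifit2, Ifit3, Isg20 and Rsad2. Ifit3, at 58.7 FPKM on average with S1P, differed by 0.69 ± 0.15 (SE; limma adjusted p = 0.0076). The 8 included Cdkn1c, at 93.3 FPKM with S1P (-2.79 ± 0.16 SE; limma adjusted p = 0.000123), Plin2, at 620.3 (-0.62 ± 0.06 SE; limma adjusted p = 0.000549), Ddit3, at 63.4 (-1.08 ± 0.15 SE; limma adjusted p = 0.00209), and Trib3, at 48.2 (-1.16 ± 0.15 SE; limma adjusted p = 0.00143). Of the 15 with the largest fall, 12 stayed higher with ACM than with S1P and 0 were lower, for example Cbr2, at 14.98 FPKM with S1P (1.35 ± 0.22 SE; limma adjusted p = 0.00309). By list, 36 of 39 type I interferon genes were higher with ACM and 0 lower, while 25 of 33 NRF2 targets were lower and 1 higher. The WT S1P libraries were not uniform, and lay at 19.99 to 35.6 on the first component of all 24 libraries. Relative to the WT untreated mean, their interferon sums were 0.832 to 1.131 and their mitosis sums 0.312 to 0.572. The S1P means given here average over this spread. All 33 mitosis genes and 20 of 25 cholesterol genes were higher with ACM. The comparison uses the same WT ACM libraries by which the 30 genes were named.

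The ACM change was then compared between genotypes. In KO cells limma called 2 genes between ACM and untreated cells (0.0188% of those tested; 1083 at an unadjusted p below 0.05), and 27 without the library labelled KO untreated 81 (0.253%; 1147 unadjusted). The test of the difference between the genotypes' changes called 2319 genes (21.7%), 1132 with a higher change in KO cells (10.6%) and 1187 with a lower one (11.1%), and 2322 (21.8%) without that library. With TPM scaling the split was 1465 and 437 (1158 and 399 without the library), and without Gm23935 and CT010467.1 in that scaling 1431 and 945 (1353 and 997). All 30 genes with the largest change in WT cells were called in that test with and without the library, though the WT change by which they were named is part of it. Plin2 had means of 177 untreated and 149.8 with ACM FPKM in KO cells, a change of -0.20 ± 0.12 (-0.01 ± 0.03 without the library), and differed from WT by -1.49 ± 0.17 (limma adjusted p = 5.23e-05) or -1.30 (limma adjusted p = 3.83e-11). Cdkn1c had 1.58 untreated and 1.1 with ACM FPKM in KO cells, and its change differed from WT by -2.79 ± 0.20 (limma adjusted p = 1.48e-06) or -2.61 (limma adjusted p = 1.55e-08). Ifit3 had 54.1 untreated and 30.7 with ACM, with a change of -0.58 ± 0.28 that became -0.15 ± 0.07 without the library, and differed from WT by -1.78 ± 0.39 (limma adjusted p = 0.00438) or -1.35 (limma adjusted p = 1.3e-07). Without the library the KO changes of the 30 genes lay between -0.26 and 0.24, and 1 of them was called, Cbr2 (-0.26 ± 0.05, limma adjusted p = 0.0347).

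By list, of the 39 type I interferon genes 36 had a lower change in KO than in WT cells by that test, of 33 mitosis genes 32 had a higher one, of 25 cholesterol genes 19, and of 33 NRF2 targets 18 a lower one. Without the library labelled KO untreated 81 these counts were 36, 31, 20 and 18. The median KO change of the interferon genes was -0.30 with that library and -0.13 without it. The WT change is again part of this test. The summed interferon list, relative to the WT untreated mean, was 1.33 to 1.40 in WT ACM and 0.842 to 0.955 in KO ACM libraries. It was 0.945 to 1.52 in KO untreated libraries, and the highest was the library labelled KO untreated 81. The summed cholesterol list was 0.756 to 0.77 in WT ACM and 0.992 to 1.04 in KO ACM libraries. The plot of summed levels shows these values for 6 lists, and the plot of the 30 genes sets the 3 comparisons side by side.

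**Figure D4:**
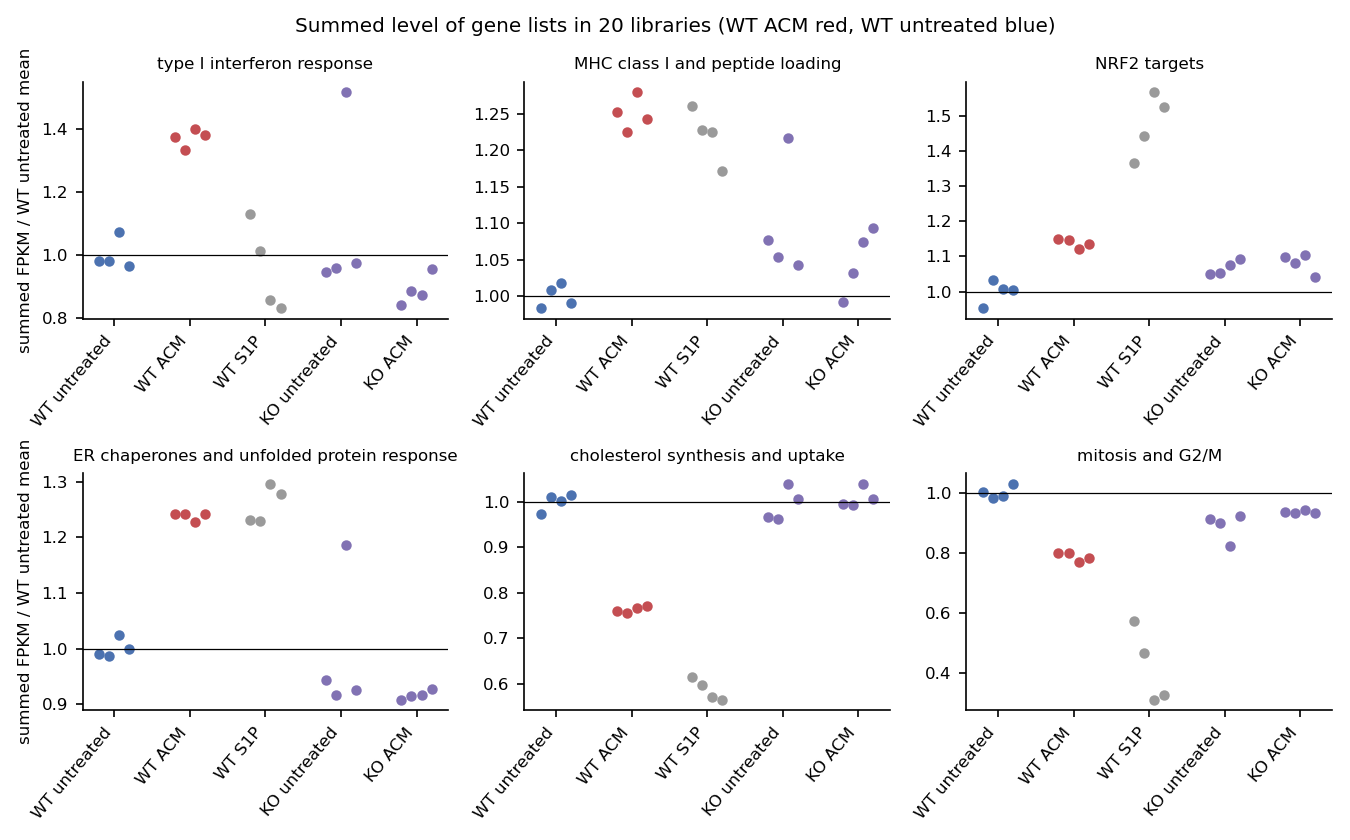
Summed FPKM of 6 gene lists, divided by the WT untreated mean of the list, in each library of 5 groups (points; WT untreated blue, WT ACM red, WT S1P grey, KO purple; vertical axes do not start at 0). The WT ACM libraries lie together and apart from WT untreated in every panel, the KO ACM libraries lie outside the WT ACM range in each, and 1 KO untreated library, 81, is high in the interferon, class I and ER chaperone panels.

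**Figure D5:**
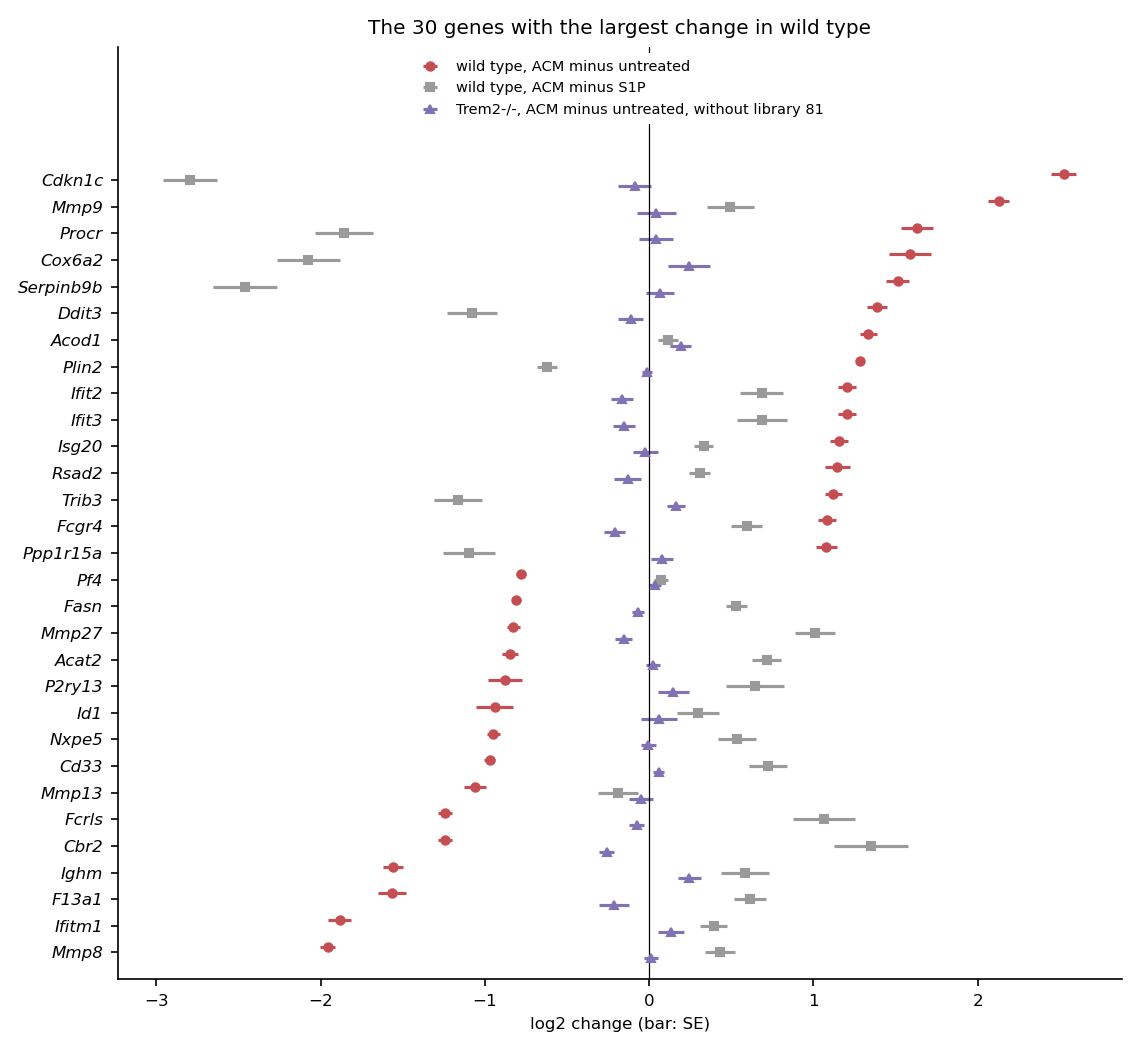
Change in log2(FPKM + 1), with its SE, for the 30 genes that changed most in WT cells, 15 in each direction: WT ACM minus WT untreated (red circles), WT ACM minus WT S1P (grey squares) and KO ACM minus KO untreated without library 81 (purple triangles). The purple points lie between -0.26 and 0.24, while the grey points spread to both sides of 0.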

How the data were processed

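RNA was sequenced in 24 oligo(dT) macrophage libraries, and values were taken from the deposited table of FPKM per gene, which the authors made before deposit. Per the submitters' processing notes, tools including STAR, HISAT2, StringTie and featureCounts were used with builds mm10 and GRCm38, and roles, versions, strand setting and annotation are not stated. FPKM divides by exon length and library total, so near-identical genes can share reads and antisense pairs cannot be told apart. Of 54532 genes, 54495 were named from GENCODE M21, and 37 were not. No column was left without a sample (0). Whole reads were recovered from the FPKM steps for 97% of genes above 0 (tolerance 0.05), which gave the depth per library.

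Genes with FPKM of 1 or more in at least 4 of the 8 libraries were tested as log2(FPKM + 1) in limma 3.58.1 (R 4.3.3, moderated with a trend, 2-sided), with Benjamini-Hochberg adjustment over all 10665 genes and a call at an adjusted p under 0.05. WT ACM was compared with WT untreated and with WT S1P in fits of 8 libraries, and with the KO change in a fit of 16. Tested on simulated data for ACM against untreated cells (10110 genes), 30 of 50 changes of 0.5 log2 units and 50 of 50 of 1 unit were recovered, and over all sizes 12 of 192 calls were false. Every simulated gene had the same preset spread, which was not fitted to these libraries, and only genes above 5 FPKM were changed. Far fewer genes were changed than were called here, so recovery and false calls in these data may differ. Alternatives were the pseudocount, filters, TPM, median and quantile scaling, a fit of all 24 libraries, no trend, voom on recovered reads and leaving out each library; TPM scaling without Gm23935 and CT010467.1, and both TPM scalings without KO untreated 81, were added after seeing the data.

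The 64 gene lists and the members described were chosen with earlier results of these data known, and lists are given by counts and medians with no set test. Named genes are the 15 largest rises and 15 largest falls among called genes with a mean FPKM of 5 or more in the higher group and groups that do not overlap (no predicted or mitochondrial genes), the 10 largest gains and 10 largest losses in FPKM, from each list at most 4 genes by lowest adjusted p, genes switched on or off, the 5 smallest adjusted p against S1P and between genotypes among the first set, Trem2 and defining markers. Other list members are named as examples chosen after their values were seen. Promoters came from RefSeq (GRCm38.p6).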

Additional observations from a re-analysis of the deposited data

Results flagged for a closer look

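In 9 of the 228 groups of 4 libraries examined, 1 library lay apart from the other 3 by Dixon's criterion at the 95% level (its gap to the nearest library over the group's range), where chance alone gives about 1 in 20 groups. Ifit3 was highest in WT untreated 1, at 44.02 FPKM against 38.3 to 38.97 in the others. F13a1 was highest in WT untreated 1, at 9.6 FPKM against 8.33 to 8.45 in the others. For the list type I interferon response the sum was highest in WT untreated 3, at 2775 FPKM against 2495 to 2538 in the others. The p200 family sum was lowest in WT ACM 22, at 304 FPKM against 320.5 to 323 in the others. For the list ER chaperones and unfolded protein response the sum was lowest in WT ACM 21, at 3366 FPKM against 3405 to 3406 in the others. The CDK inhibitors and p53 targets sum was lowest in WT ACM 22, at 421 FPKM against 430.5 to 432 in the others. For the list inflammatory cytokines and NF-kB feedback the sum was lowest in WT ACM 22, at 609.6 FPKM against 621 to 623 in the others. The immediate early AP-1 and EGR factors sum was highest in WT ACM 20, at 744 FPKM against 725 to 728 in the others. For the list Fc receptors the sum was highest in WT ACM 21, at 1277 FPKM against 1203 to 1213 in the others. The 2 groups being compared did not overlap for Ifit3, F13a1 or the interferon and ER chaperone sums with these libraries included.

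The ACM change differed between the genotypes for all 30 genes with the largest change in WT cells, by limma's interaction test on 16 libraries. Each gene is given with the KO minus WT difference in log2 units and its limma adjusted p. These values include the library labelled KO untreated 81. The difference was below 0 for Cdkn1c (-2.79, 1.48e-06), Mmp9 (-2.67, 0.00279), Procr (-1.70, 1.39e-05), Cox6a2 (-1.57, 0.00062), Serpinb9b (-1.58, 1.74e-05), Ddit3 (-1.66, 2.25e-05), Acod1 (-1.56, 0.00812), Plin2 (-1.49, 5.23e-05), Ifit2 (-1.77, 0.00323), Ifit3 (-1.78, 0.00438), Isg20 (-1.51, 0.00312), Rsad2 (-1.66, 0.00383), Trib3 (-1.15, 0.000644), Fcgr4 (-1.60, 0.00118) and Ppp1r15a (-1.10, 3.26e-05). It was above 0 for Mmp8 (2.51, 0.00202), Ifitm1 (2.56, 0.00193), F13a1 (1.87, 0.0105), Ighm (1.69, 3.8e-06), Cbr2 (1.30, 0.00441), Fcrls (1.43, 0.000839), Mmp13 (1.45, 0.0177), Cd33 (1.29, 0.00142), Nxpe5 (1.04, 1.8e-05), Id1 (1.21, 0.00214), P2ry13 (1.17, 0.000383), Acat2 (0.87, 6.34e-07), Mmp27 (0.94, 0.0131), Fasn (0.79, 3.8e-06) and Pf4 (1.09, 0.00513). The WT libraries by which these genes were named enter this test, and all 30 were also called without the library labelled KO untreated 81. The sizes depend on that library. With it the KO changes lay between -0.58 and 0.02 for the 15 risers and between -0.02 and 0.67 for the 15 fallers. Without it they lay between -0.21 and 0.24 for the risers and between -0.26 and 0.24 for the fallers.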

How the results depend on the processing

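The scaling had the largest effect on the counts. With TPM scaling, where the median change of the tested genes was -0.10, 701 genes were higher and 3551 lower with ACM, and the genotype comparison gave 437 genes with a lower change in KO cells, or 399 when KO untreated 81 was also left out. Of the 2965 genes called between ACM and untreated cells, 2068 were also called in the same direction with TPM scaling and 2943 with a pseudocount of 0.1, the ends of the range over the alternatives. All other counts of calls in the 3 comparisons were within 1.5 times those reported. Quantile normalization gave 1413 higher and 1536 lower. Leaving out 1 library at a time gave 1322 to 1512 higher and 1151 to 1283 lower for ACM against untreated cells, 1825 to 2707 and 1311 to 2069 against S1P, and 948 to 1122 and 1006 to 1200 in the genotype comparison. Among the named genes, the change turned sign with quantile normalization for B2m (-0.0097), Actb (-0.051) and Ctss (-0.035), and with TPM scaling for Mrpl4 (-0.0017), Sdhc (-0.023), Atp6ap1 (-0.0075) and Atp6ap2 (-0.0037). Of 232 named genes, 18 lost their call with TPM scaling without turning sign, and the 4 that turned sign were not called either. The call was lost by 18 with no filter on low values, 15 in the fit of all 24 libraries and 3 to 9 when 1 library was left out. Counts of list members called moved by over 1.5 times in 67 of 128 cases with TPM scaling, 22 with TPM scaling without Gm23935 and CT010467.1, 1 with median scaling and 0 with the other pseudocount. No paired analysis was possible because the groups share no replicate numbers. The cause of these differences was not tested. With 17.7 to 20.2 M reads a library, genes under 1 FPKM were not tested in the comparison.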

Other observations

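Chemokine receptors and CXC chemokines moved in both directions, 8 higher and 5 lower of 17 tested. Ccrl2, a receptor that binds chemerin, rose from 2.66 to 4.86 FPKM (0.68 ± 0.05), Cxcl2, a neutrophil attractant, from 17.4 to 23.2 (0.40 ± 0.06) and Cxcr3 from 3.3 to 5.29 (0.54 ± 0.09). Cxcr4, the receptor of CXCL12, fell from 8.94 to 5.55 (-0.61 ± 0.07), and Ppbp, a platelet chemokine, from 20.9 to 13.3 (-0.61 ± 0.11). Of 34 integrin and cytoskeleton genes 8 rose and 8 fell (3 and 15 with TPM scaling). Itgal, an integrin chain for leukocyte adhesion, fell from 5.19 to 3.5 (-0.46 ± 0.05), and Itgam, CD11b, from 76.8 to 62.2 (-0.30 ± 0.03). The tetraspanin Cd82 rose from 18.4 to 23.2 (0.32 ± 0.04).

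Among genes of cell death Tnfsf10, the death ligand TRAIL, which interferon induces, rose from 1.23 to 2.33 FPKM (0.59 ± 0.08) and Bbc3, PUMA, from 7.84 to 10.4 (0.36 ± 0.09). Of 24 such genes 5 rose and 2 fell (3 and 6 with TPM scaling). These shares were 20.8% and 8.33%, against 15.0% and 12.8% of all genes tested. The phosphatases Dusp1, from 11.9 to 16.5 (0.45 ± 0.08), and Dusp5, from 3.53 to 5.18 (0.45 ± 0.08), which switch off MAP kinases, rose. Of the 17 tested amino acid transporters 4 rose and 2 fell (3 and 8 with TPM scaling), with a median of -0.02. Their shares were 23.5% and 11.8%, against 15.0% and 12.8% of all genes tested. Slc3a2, the partner chain of Slc7a11, rose from 56.02 to 74.5 (0.41 ± 0.04). Of the 34 tested autophagy genes 4 rose and 1 fell (2 and 11 with TPM scaling). These shares, 11.8% and 2.94%, were below the 15.0% and 12.8% of all genes tested. Atg13 was among the risers, from 11.95 to 15.5 (0.35 ± 0.04). These examples were chosen after their values were seen, and each change is in log2(FPKM + 1) with its SE.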
